A study of Mus musculus with 2 samples.

Results

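The genes described here set the pace of the G1 phase of the cell cycle in mouse lung fibroblasts: the D cyclins Ccnd1, Ccnd2 and Ccnd3, the kinases Cdk2, Cdk4 and Cdk6, the kinase inhibitors Cdkn1b, Cdkn2a and Cdkn2b, and the pocket protein gene Rb1. They were chosen by symbol from a table of 14886 protein-coding genes, and all 10 were found in it. The inhibitor Cdkn1a was left out of the list, although it belongs to the same class, and its value is given further below. The samples were 2 ribosome footprint libraries, 1 labelled IR and 1 labelled NC. Ribosome profiling reads the pieces of mRNA that a translating ribosome covers, so both the amount of an mRNA and the number of ribosomes on it enter the count of its gene. The series title concerns radiation-induced lung fibrosis and rosmarinic acid, but the labels spell out neither abbreviation and give no genotype, strain, dose, time or animal age, so the groups are known by these labels alone. In both libraries cells were treated with cycloheximide before lysis, per the labels' protocols.

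In early G1 a D cyclin binds CDK4 or CDK6, and the complex phosphorylates the retinoblastoma protein, which otherwise holds back E2F transcription factors. CDK2 with cyclin E then completes this phosphorylation and starts DNA replication. The INK4 proteins p15 (Cdkn2b) and p16 (Cdkn2a) block CDK4 and CDK6, while p27 (Cdkn1b) blocks CDK2 complexes and also binds cyclin D complexes. The INK4 proteins accumulate in cultured and damaged fibroblasts that enter senescence, a lasting exit from the cell cycle.

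The libraries held 888835 (IR) and 695446 (NC) counts, and the median gene had 12 counts in each. Actr10 alone took 6.22% of the IR counts and 2.30% of the NC counts, and the 10 most abundant genes took 20.3% and 12.1%. Fibroblast markers were all detected (10 of 10 in each library). Their summed levels were 8007 CPM in IR and 7640 CPM in NC (CPM, the count per 1e6 reads after TMM scaling). Col1a1 held 3455 of 6334 and 3124 of 5970 of these counts. The other fibroblast markers went both ways, Col3a1 from 519 counts in NC to 348 in IR and Pdgfra from 66 to 38. Pdgfrb went from 80 to 131 and Dcn from 88 to 135. Of 8 epithelial markers 3 were in the table, with 11 counts in IR and 2 in NC, of which Krt8 held 9 and 1 and Epcam 0 and 1. Of 8 leukocyte markers 6 were in the table, with 200 and 158 counts (6 and 2 detected), of which Cd3e held 178 and 157 and Ptprc 8 and 0. Of the 6 endothelial markers, 6 were detected in IR and 5 in NC, with a sum of 8765 CPM against 3400 CPM, of which Emcn held 6842 of 6933 and 2618 of 2657 counts. Pecam1 and Cdh5, defining endothelial genes, had 8 and 2 counts and 1 and 0 counts. Vwf had 37 and 15 counts (fold 2.44, 1.31 to 4.78) and Tek 23 and 10 (fold 2.27, 1.04 to 5.35). Kdr had 22 and 12 (fold 1.81, 0.858 to 4.02), an interval that included 1. The 4 mesothelial markers reached 604 CPM in IR but 129 CPM in NC (4 and 2 detected), with 417 of 478 and 77 of 101 counts on Wt1. The 6 smooth muscle and pericyte markers reached 1144 and 827 CPM (4 and 5 detected). Acta2 held 820 and 562 of their counts, and the others, with 85 and 84 in all, went both ways, Myh11 from 24 counts in NC to 0 in IR and Des from 9 to 35. The part of these markers in the results below was not tested.

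Each deposited count is a sum over a whole gene. This matters most for Cdkn2a, which in mouse makes 2 unrelated proteins from different starts, p19Arf from the upstream start and p16 from the downstream one, so the promoters of both are shown. The windows for Cdk2 and Cdk4 are shown beside them because these kinases had fold values on opposite sides of 1. Each window runs from 250 bases before to 50 bases after the start, 5′ to 3′ on the gene's strand (RefSeq, GRCm38.p6), and capitals mark a GC box (GGGCGG) or a CCAAT box, read on both strands.
Cdkn2a upstream start (chr4:89294570-89294869, minus strand): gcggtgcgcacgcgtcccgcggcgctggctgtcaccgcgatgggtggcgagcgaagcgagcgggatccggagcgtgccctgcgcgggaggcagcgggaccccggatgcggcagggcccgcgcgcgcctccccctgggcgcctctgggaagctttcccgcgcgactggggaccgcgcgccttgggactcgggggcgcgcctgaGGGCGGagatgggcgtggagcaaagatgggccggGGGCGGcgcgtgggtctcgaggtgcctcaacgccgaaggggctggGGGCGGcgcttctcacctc
Cdkn2a downstream start (chr4:89282143-89282442, minus strand): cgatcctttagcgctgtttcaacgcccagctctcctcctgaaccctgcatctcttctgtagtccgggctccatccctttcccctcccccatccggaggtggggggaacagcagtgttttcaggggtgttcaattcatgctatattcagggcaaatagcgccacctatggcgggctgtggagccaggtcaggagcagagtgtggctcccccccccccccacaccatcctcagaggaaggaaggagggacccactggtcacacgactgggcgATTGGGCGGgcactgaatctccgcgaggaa
Cdk2 (chr10:128705002-128705301, minus strand): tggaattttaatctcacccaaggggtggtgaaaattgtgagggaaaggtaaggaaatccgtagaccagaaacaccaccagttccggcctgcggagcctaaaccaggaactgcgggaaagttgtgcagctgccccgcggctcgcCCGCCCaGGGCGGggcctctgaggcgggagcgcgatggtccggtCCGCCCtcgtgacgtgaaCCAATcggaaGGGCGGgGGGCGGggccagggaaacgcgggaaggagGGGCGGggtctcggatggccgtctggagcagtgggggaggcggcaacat
Cdk4 (chr10:127063285-127063584, plus strand): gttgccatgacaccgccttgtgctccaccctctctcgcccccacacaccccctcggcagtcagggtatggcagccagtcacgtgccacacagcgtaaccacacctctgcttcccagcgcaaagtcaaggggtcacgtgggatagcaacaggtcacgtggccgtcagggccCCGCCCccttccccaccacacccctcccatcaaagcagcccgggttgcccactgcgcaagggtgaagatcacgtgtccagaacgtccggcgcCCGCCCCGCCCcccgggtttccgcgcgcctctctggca
RefSeq windows were matched for 7 of the 10 genes, 9 windows in all, and Ccnd1, Ccnd2 and Rb1 had no entry. The GC box occurred 6 times in the Cdk2 window, 3 times each in the Cdk4 and upstream Cdkn2a windows and once (1) in the downstream Cdkn2a window, where it overlaps a CCAAT box. At least 1 GC box was held by 35.7% and at least 1 CCAAT box by 37.4% of the 32851 windows in the table. The upstream Cdkn2a window was 77.0% G and C against a median of 52.7% over all windows and 60.3% in the downstream one. The E2F motif (TTTCGCGC or TTTGGCGC) was in none of the 9 windows, and 0.813% of all windows hold it. The CRE motif (TGACGTCA) occurred in the Cdkn2b window and in 1.79% of all windows. A match describes letters only, and no binding was measured.

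Footprints of the 10 genes together made up 0.133% of the IR library (1186 counts) and 0.154% of the NC library (1070 counts). Of the 10 genes, 8 averaged 20 or more counts over the libraries and were compared with all 5989 genes that reached this minimum. Cdkn2b and Rb1 fell below it. There were no replicates, so each difference is one between 2 libraries, with an interval for counting error alone, which PCR copies of a footprint would widen. In such bulk samples a smaller number of cells in a given state and less RNA per cell cannot be told apart.

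Among the D cyclins, which pass growth factor signals to the cell cycle, Ccnd1 and Ccnd3 gave more footprints in IR after TMM scaling, and the interval of Ccnd2 included 1. Ccnd1 lies on chromosome 7 at 144929931 to 144939869 (mm10) and is the D cyclin most tied to growth factor and adhesion signals in fibroblasts. Its counts were 310 in IR and 167 in NC, which is 392 CPM (95% counting interval 349 to 438) against 214 CPM (183 to 249). These intervals did not overlap, and the fold of IR over NC was 1.83 (1.51 to 2.23). Ccnd3, on chromosome 17 at 47505051 to 47599691, had 98 and 63 counts, or 124 and 80.6 CPM. Its level intervals overlapped slightly (101 to 151 CPM in IR and 62.0 to 103 CPM in NC), and the fold was 1.54 (1.11 to 2.14). Ccnd2, on chromosome 6 at 127125779 to 127151048, had 103 counts in IR and 120 in NC, or 130 and 154 CPM. Its fold of 0.848 (0.645 to 1.11) included 1, so neither a fall of up to 1.55-fold nor a small gain can be set aside at this depth. Ccnd1 overlaps Oraov1 by 818 bases and Ccnd3 overlaps Bysl by 361 bases, each on the opposite strand, and these neighbours had 10 and 13 and 12 and 22 counts in IR and NC. Over the D cyclins the summed counts were 511 and 350, and the fold was 1.44 (1.26 to 1.66). Without Ccnd1 the sum was 201 and 183, a fold of 1.09 (0.884 to 1.33). With total-count scaling the fold of the D cyclin sum was 1.14 (0.995 to 1.31).

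**Figure D1:**
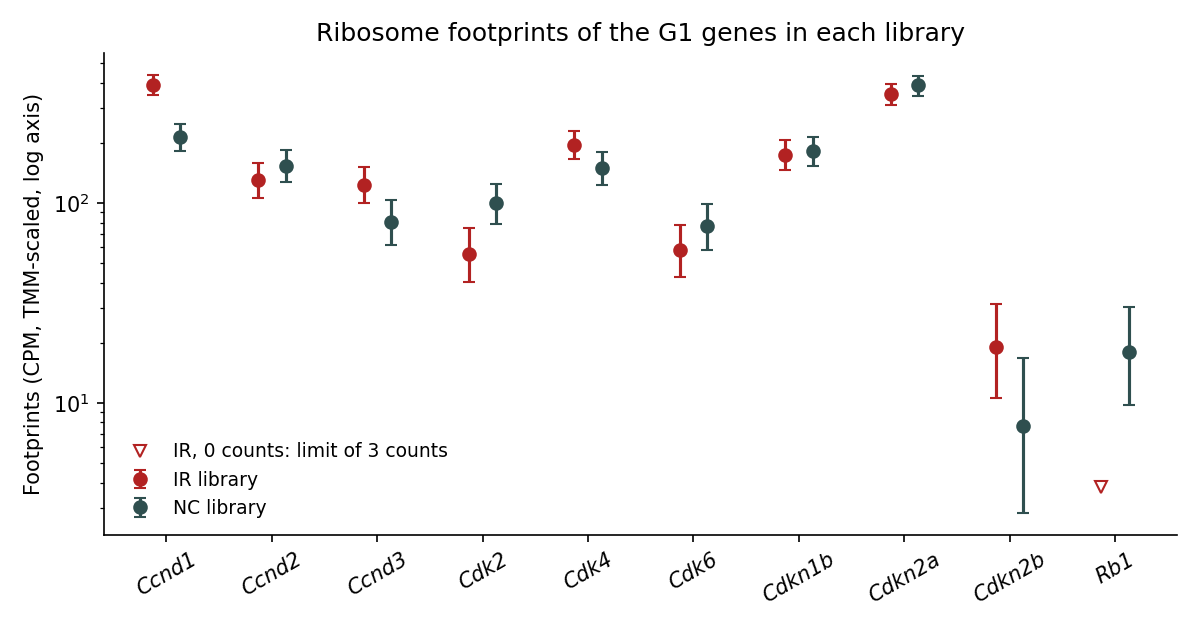
Footprint level of each gene in CPM after TMM scaling (log axis) in the IR library (red) and the NC library (dark), with exact Poisson 95% intervals as bars and an open triangle at the limit of 3 counts where the count was 0. Ccnd1 stands at 392 CPM in IR and 214 CPM in NC, Cdkn2a is close in both libraries at 350 and 388 CPM, and Rb1 has no count in IR.

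The make-up of the D cyclins differed between the libraries, and a share within a library does not depend on how the libraries are scaled to each other. Ccnd1 took 60.7% of D cyclin counts in IR (310 of 511, exact 95% interval 56.3 to 64.9) and 47.7% in NC (167 of 350, 42.4 to 53.1). Ccnd2 took 20.2% in IR (16.8 to 23.9) and 34.3% in NC (29.3 to 39.5). The share of Ccnd3 was alike, 19.2% (15.9 to 22.9) and 18.0% (14.1 to 22.4). Set against each other, there were 3.01 Ccnd1 counts per Ccnd2 count in IR and 1.39 in NC, a ratio of 2.16 (1.54 to 3.03). Ccnd3 against Ccnd2 gave a ratio of 1.81 (1.18 to 2.80), and Ccnd1 against Ccnd3 one of 1.19 (0.810 to 1.75). Both ratios against Ccnd2 thus had intervals above 1, and that of Ccnd1 against Ccnd3 included 1. These are shares of counts, not of molecules, since counts also grow with coding length.

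Among the kinases, Cdk2 and Cdk4 lay on opposite sides of 1. Cdk4, the main partner of D cyclins in fibroblasts, lies on chromosome 10 at 127063534 to 127067920 and had 155 counts in IR and 117 in NC, or 196 (166 to 229) and 150 (124 to 179) CPM. These level intervals overlapped, and the fold was 1.31 (1.02 to 1.68). Cdk4 overlaps Tspan31 on the opposite strand by 604 bases, and Tspan31 had 192 and 116 counts, so without the strand setting some reads of one may belong to the other. Cdk6, the second D cyclin kinase, lies on chromosome 5 at 3343893 to 3523218 and had 46 and 60 counts, or 58.2 and 76.8 CPM, a fold of 0.757 (0.504 to 1.13). Cdk2, the partner of cyclins E and A, lies on chromosome 10 at 128697939 to 128705051. The counts were 44 in IR and 78 in NC, or 55.6 CPM (40.4 to 74.7) against 99.8 CPM (78.9 to 125). These intervals did not overlap, and Cdk2 was 1.79-fold lower in IR (1.22 to 2.66). In the RefSeq annotation of GRCm38.p6 the Pmel gene also spans the whole of Cdk2.

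Within each library Cdk4 took a larger part of the kinase counts in IR than in NC. It made up 63.3% of Cdk2, Cdk4 and Cdk6 counts in IR (155 of 245, 56.9 to 69.3) and 45.9% in NC (117 of 255, 39.7 to 52.2). Cdk2 made up 18.0% (13.4 to 23.3) and 30.6% (25 to 36.6). Among Cdk4 and Cdk6 counts alone, Cdk4 held 77.1% in IR (70.7 to 82.7) and 66.1% in NC (58.6 to 73.0), an odds ratio of 1.73 (1.07 to 2.79). Cdk4 against Cdk2 gave 3.52 counts per count in IR and 1.5 in NC, a ratio of 2.34 (1.48 to 3.75). Summed over the kinases the counts were 245 and 255, and the fold was 0.949 (0.793 to 1.14) after TMM scaling. With total-count scaling the fold of this sum was 0.752 (0.628 to 0.899), below 1.

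**Figure D2:**
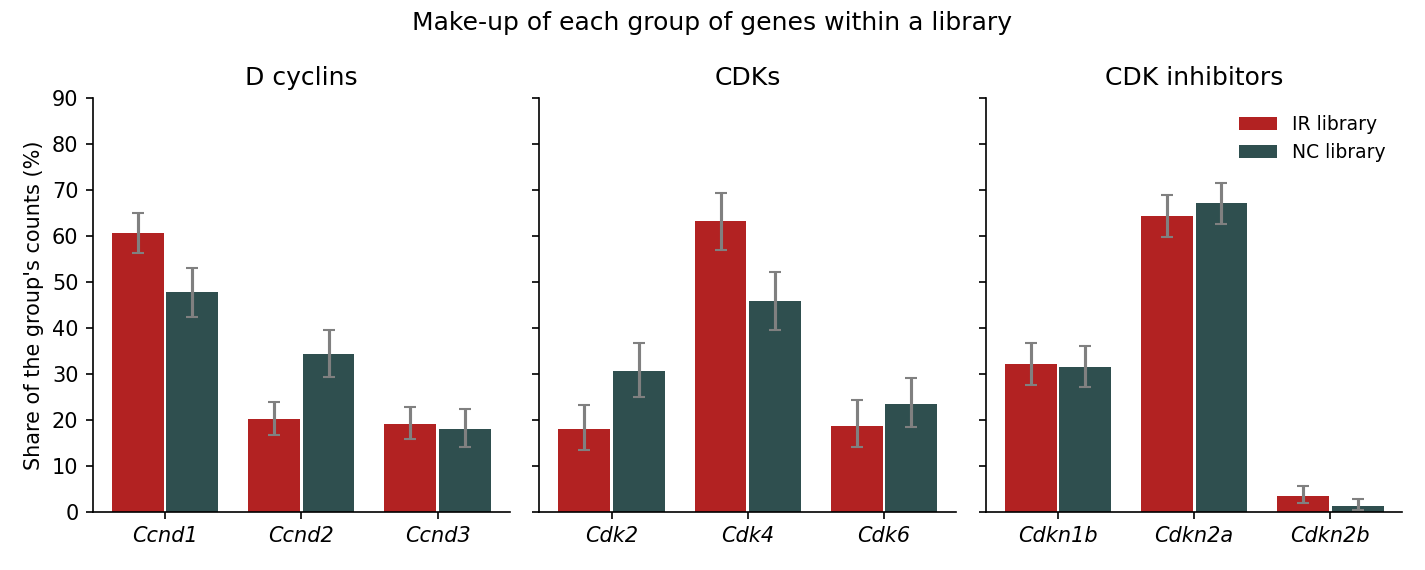
Share of each gene, in percent, among the counts of its group in the IR library (red) and the NC library (dark), with exact binomial 95% intervals as grey bars. Ccnd1 and Cdk4 hold larger shares in IR (60.7% and 63.3%) than in NC (47.7% and 45.9%), whereas Cdkn2a holds 64.4% and 67.2% of the inhibitor counts.

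The inhibitors with enough counts did not differ beyond counting error after TMM scaling. Cdkn2a, the INK4a and Arf gene, lies on chromosome 4 at 89274471 to 89294653. It was the most counted of the 10 genes in NC, with 277 in IR and 303 in NC, or 350 (310 to 394) and 388 (345 to 434) CPM. The level intervals overlapped, and the fold was 0.903 (0.765 to 1.07). Counts per gene cannot tell whether these footprints lie in the p16 or the p19Arf reading frame. Cdkn1b, which encodes p27, lies on chromosome 6 at 134920401 to 134925513 and had 138 and 142 counts, or 174 and 182 CPM. Its fold was 0.960 (0.754 to 1.22). Cdkn2b, the p15 gene next to Cdkn2a on chromosome 4 at 89306289 to 89311032, had 15 counts in IR and 6 in NC. These correspond to 19.0 CPM (10.6 to 31.3) and 7.68 CPM (2.82 to 16.7), and the fold of 2.47 (0.906 to 7.77) was too imprecise to place on either side of 1. Without a minimum count, 17.6% of genes above 0 in both libraries were at least 2-fold higher, as Cdkn2b was.

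The shares of the inhibitor genes had overlapping intervals in the 2 libraries. Cdkn2a held 64.4% of the inhibitor counts in IR (59.7 to 68.9) and 67.2% in NC (62.6 to 71.5), and Cdkn1b held 32.1% and 31.5%. Cdkn2b held 3.49% (1.97 to 5.69) in IR and 1.33% (0.490 to 2.87) in NC, an odds ratio of 2.68 (0.971 to 8.51). There were 0.841 inhibitor counts per D cyclin count in IR and 1.29 in NC, a ratio of 0.653 (0.538 to 0.793). The inhibitor sum itself was 430 and 451, a fold of 0.942 (0.823 to 1.08) after TMM scaling, which included 1. With total-count scaling the fold of this sum was 0.746 (0.652 to 0.853), below 1. The D cyclin sum without Ccnd1 had a fold of 1.09 (0.884 to 1.33), so the ratio rests largely on Ccnd1. Against the kinases the interval included 1, at 1.76 and 1.77 inhibitor counts per kinase count, a ratio of 0.992 (0.792 to 1.24). Cdkn2a and Cdkn2b counts per Cdk4 and Cdk6 count were 1.45 and 1.75, a ratio of 0.832 (0.638 to 1.09). All these inhibitor sums hold the Cdkn2a counts, 277 and 303, which cannot be split between p16 and p19Arf. Without Cdkn2a the inhibitor sum was 153 and 148, a fold of 1.02 (0.809 to 1.29). Cdkn1b against its target Cdk2 gave 3.14 in IR and 1.82 in NC, a ratio of 1.72 (1.09 to 2.74). This ratio rests largely on the lower Cdk2 counts in IR, since the fold of Cdkn1b was 0.960 (0.754 to 1.22) after TMM scaling. Cdkn2a against Cdk4 went the other way, at 1.79 in IR and 2.59 in NC, a ratio of 0.690 (0.511 to 0.932). These are among 18 such ratios computed between these genes or their sums, 12 of which had intervals that excluded 1. The 18 ratios share genes and carry no adjustment for their number.

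Rb1, whose protein the D cyclin kinases phosphorylate, lies on chromosome 14 at 73183673 to 73325822. No read (0) fell on it in IR, against 14 in NC. The NC count is 17.9 CPM (9.79 to 30.1), and the limit that a count of 0 allows, 3 counts, is 3.79 CPM in IR. The exact interval of its fold, which covers the counting error of both libraries, ran from 0 to 0.298, so Rb1 was at least 3.36-fold lower in IR within counting error. Rb1 averaged fewer counts than the minimum used for comparisons, so it enters none of the counts of genes placed. The difference rests on 14 reads, some of which could be PCR copies. Of the 13009 genes with a count in NC, 11429 also had a count in IR, and the others had 0 there, as Rb1 did. How many of all genes had an interval as low as that of Rb1 was not computed. Rcbtb2 and Lpar6, which overlap Rb1 on the opposite strand, had 5 and 6 counts and 4 and 2 counts in IR and NC.

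**Figure D3:**
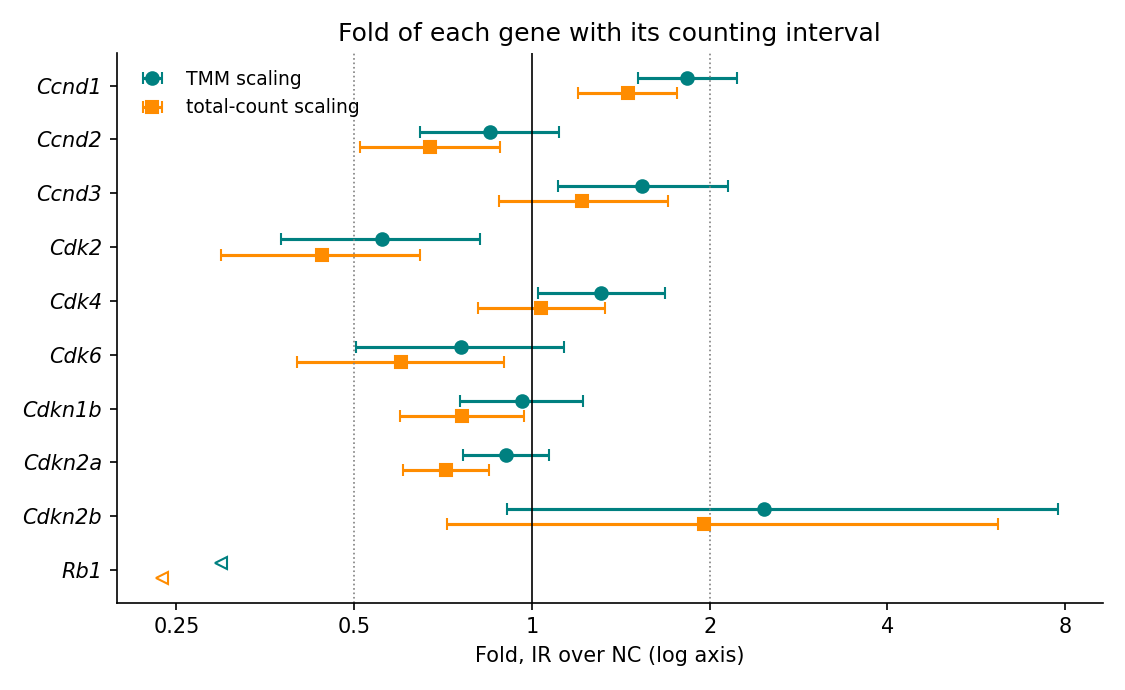
Fold of IR over NC for each gene (log axis) with exact binomial 95% intervals, after TMM scaling (circles) and after total-count scaling (squares), with open triangles at the upper end of the interval for Rb1 and dotted lines at 2-fold. Under TMM the intervals of Ccnd1, Ccnd3 and Cdk4 lie above 1 and those of Cdk2 and Rb1 below 1, while under total counts the interval of Ccnd1 alone lies above 1.

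Set against the whole table after TMM scaling, 8 of the 10 genes averaged 20 or more counts and were compared. At least 2-fold differences were seen for 0 of them, where 23.7% of all 5989 genes differed that much (11.8% higher and 11.9% lower in IR). The counting interval excluded 1 for 4 of the 8 (50%), against 47.2% of all genes, which is near that background. Of these, 3 were higher (background 23.5%) and 1 lower (background 23.7%). The log2 ratios of the 8 genes ran from -0.83 (Cdk2) to 0.87 (Ccnd1), with a median of -0.10, and over all 5989 genes the median was -0.02. Their log2 ratios put 5 of the 8 within the interquartile range of all genes (-0.54 to 0.51), and Ccnd1, Ccnd3 and Cdk2 outside it. Ccnd1 lay above 86.0% and Ccnd3 above 79.0% of all genes compared, and Cdk2 above 15.2%. Among the 1332 genes averaging 100 or more counts, Ccnd1 lay above 84.9% of genes. Of the 5 members at that depth, 2 were higher and 0 lower beyond counting error, against 38.2% and 25.8% of these genes (64.0% in all), and 0 differed 2-fold, against 12.5% higher and 4.58% lower (17.0% in all).

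**Figure D4:**
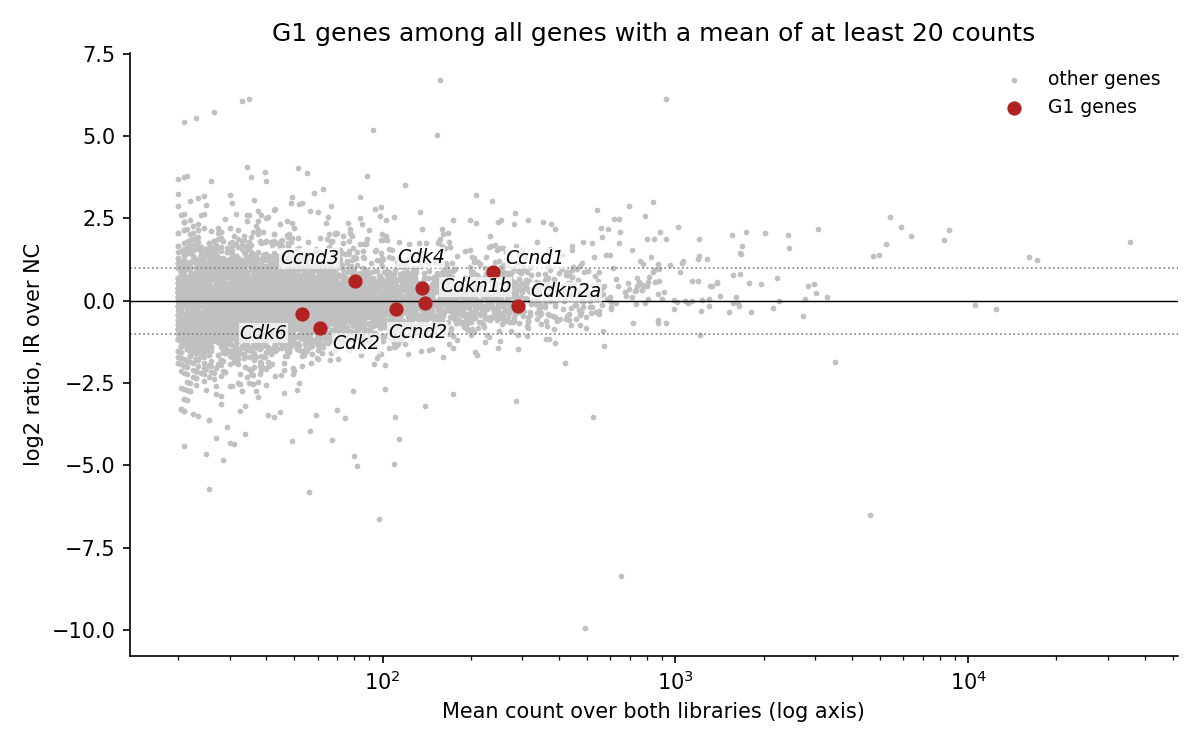
Log2 ratio of IR over NC against the mean count over both libraries (log axis) for the 5989 genes averaging 20 or more counts (grey), with the 8 G1 genes among them in red and dotted lines at 2-fold. The red points all lie between the dotted lines, from -0.83 (Cdk2) to 0.87 (Ccnd1).

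How many of these genes are placed above or below 1 depends on the scaling. Total-count scaling moved the median log2 ratio of all genes to -0.34. Under it Ccnd1 was still higher, with a fold of 1.45 (1.20 to 1.76), Ccnd3 and Cdk4 had intervals that included 1 (1.22, 0.878 to 1.70, and 1.04, 0.810 to 1.33), and 5 of the 8 members compared were lower. Under the same scaling 13.1% of all genes compared were higher and 39.1% lower. The fold of Cdk2 was 0.441 (0.298 to 0.647), and those of Ccnd2, Cdk6, Cdkn1b and Cdkn2a ran from 0.600 to 0.760. At a fold of 0.441 Cdk2 was also more than 2-fold lower, as were 20.8% of all genes. Rb1, below the minimum count, had an interval from 0 to 0.236. With the 10 highest genes left out of the totals, 1 member was higher and 3 were lower (18.1% and 31.0% of all genes), and Cdk2, at 0.496 (0.335 to 0.727), was again more than 2-fold lower (15.7% of all genes). The sum over all 10 genes turned from a fold of 1.10 (1.01 to 1.19) under TMM to 0.867 (0.798 to 0.943) under total counts with the 10 highest genes kept. Relative to the median of all genes, Ccnd1 lay 0.89 higher and Cdk2 0.81 lower on the log2 scale under TMM.

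Other genes of the pathway were read from 8 further lists, each described by its genes above the same minimum (59 of 97 listed genes, 92 of which are in the table). The intervals of all genes exclude 1 on the high side for 23.5% and on the low side for 23.7%. Among cyclins, kinases and activators that act beside or after the D cyclins, 2 of 5 were higher and 0 lower, with a median log2 ratio of -0.16. Ccnh, a subunit of the CDK-activating kinase, was read 63 times in IR and 36 times in NC (fold 1.73, 1.13 to 2.68), and it overlaps Rasa1. Cdk1, the mitotic kinase, was read 401 and 281 times (fold 1.41, 1.21 to 1.65). Ccne1, the cyclin E1 partner of CDK2, had 32 and 42, and Cdc25a, a phosphatase that activates CDKs, 24 and 31, neither beyond counting error.

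Of the Rb family, E2F and DP genes, which act directly after the D cyclin kinases, 2 of 5 were higher and 1 lower, with a median of 0.24. E2f1, an activating E2F, was read 61 and 33 times (fold 1.83, 1.18 to 2.88), and its dimer partner Tfdp2 was read 39 and 20 times (fold 1.93, 1.10 to 3.49). Rbl1, which encodes the Rb relative p107, was lower in IR, read 29 and 56 times (fold 0.512, 0.315 to 0.815). E2f4, an E2F that mainly represses, had 48 and 60. Of the other CDK inhibitors only Cdkn1a, the p53-induced p21, passed the minimum, read 65 and 38 times (fold 1.69, 1.12 to 2.59). Unlike Cdkn1a, neither Cdkn1b nor Cdkn2a had an interval above 1, and Cdkn1a and Cdkn1b were not tested against each other.

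Genes for the turnover and assembly of D cyclins and p27 lay on both sides, 4 of 10 being higher and 2 lower, around a median of 0.07. Fbxo4, an F-box protein linked to cyclin D1 turnover, was read 163 and 44 times (fold 3.66, 2.61 to 5.23), and Skp1a, the adaptor of SCF ubiquitin ligases, was read 77 and 39 times (fold 1.95, 1.31 to 2.95). Gsk3b, a kinase that marks cyclin D1 for export and decay, was read 36 and 83 times (fold 0.428, 0.281 to 0.641). Rnf123, a ubiquitin ligase for p27 that overlaps Amigo3, Gmppb and Mst1, had 21 and 41. Among the 15 mitogen inputs to cyclin D, 5 were higher and 4 lower, with a median of -0.20. Fosl1, an AP-1 subunit, was read 33 and 7 times (fold 4.66, 2.03 to 12.5). Foxo3, a factor that activates Cdkn1b, was read 3267 and 772 times (fold 4.18, 3.86 to 4.53). In IR this was 4130 CPM, near the 4368 CPM of Col1a1, and counts per gene do not show where in Foxo3 these reads lie. Akt1, the kinase that inactivates Foxo3, was read 62 and 160 times (fold 0.383, 0.281 to 0.516), and Egr1, an immediate-early factor, was read 86 and 170 times (fold 0.50, 0.381 to 0.652).

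Regulators of the Ink4/Arf locus also lay on both sides, 2 of 12 being higher and 3 lower, around a median of -0.07. Dmtf1, an activator of Arf, was read 8098 and 2407 times (fold 3.32, 3.18 to 3.48), and it overlaps Tmem243. In IR this was 10238 CPM, against 4368 CPM for Col1a1. Counts per gene do not show where in Dmtf1 these reads lie, and the narrow interval covers counting error only. Kdm2b, a histone demethylase that represses the locus, was read 67 and 38 times (fold 1.74, 1.15 to 2.67), and it overlaps Orai1. Ring1 and Ezh1, of the Polycomb complexes that silence the locus, had 14 and 30 counts and 23 and 47 counts, with folds of 0.461 (0.226 to 0.897) and 0.483 (0.280 to 0.812). Of the Arf and p53 partners 1 of 3 was higher and 0 lower, with a median of -0.22. That gene was Mdm2, the p53 ubiquitin ligase that Arf inhibits, read 98 and 65 times (fold 1.49, 1.08 to 2.07). Npm1, the nucleolar partner of Arf, had 160 and 184 counts, and Huwe1, a ubiquitin ligase that Arf binds, 230 and 266.

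Of the senescence-associated genes 3 of 8 were higher and 1 lower, with a median of 0.22. Gdf15, a stress-induced secreted factor, was read 51 and 13 times (fold 3.88, 2.08 to 7.77). Hmgb2, a chromatin protein that declines in senescent cells, was read 159 and 213 times (fold 0.737, 0.597 to 0.910). Mki67, the proliferation antigen Ki-67, was read 65 and 84 times (fold 0.764, 0.544 to 1.07), which included 1. No list was tested, and these counts hold for TMM scaling. Over the 8 lists 20 of the 59 genes were higher and 11 lower, but 7 and 22 under total counts, where 13.1% and 39.1% of all genes were. Under total counts the intervals of Ccnh, Cdk1, E2f1, Tfdp2, Cdkn1a, Kdm2b and Mdm2 included 1, with folds from 1.12 (Cdk1) to 1.53 (Tfdp2), and those of Ccne1, E2f4, Npm1, Huwe1 and Mki67 lay below 1, with folds from 0.596 (Ccne1) to 0.680 (Npm1).

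**Figure D5:**
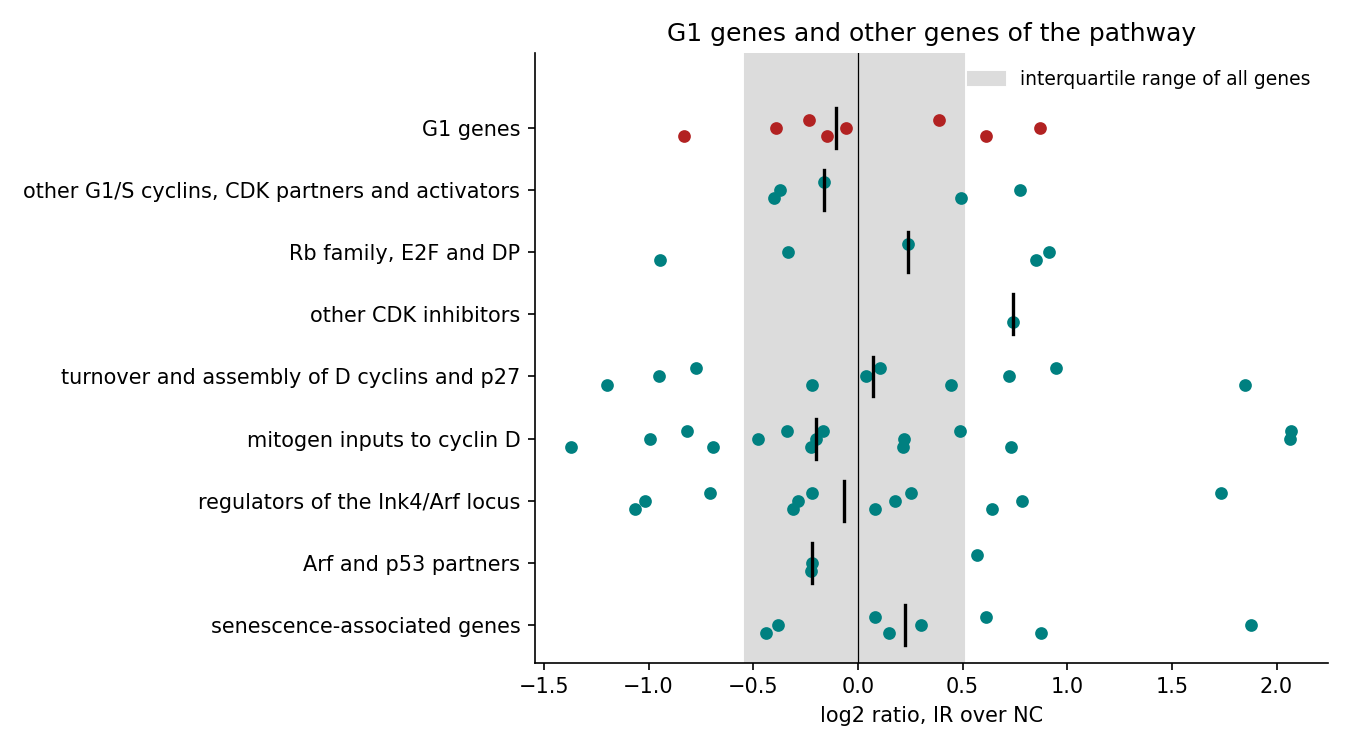
Log2 ratio of IR over NC for the G1 genes (red) and for 8 lists of other pathway genes (teal), 1 point per gene above the minimum of 20, black ticks at the medians and the interquartile range of all genes in grey. The G1 genes spread from -0.83 to 0.87, and the list medians lie between -0.22 and 0.74.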

How the data were processed

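The deposited counts are whole numbers of mapped reads per gene, per the file headers, from 1 library per group. The build was mm10, and the tools were TopHat2, Bowtie, HTSeq 0.9.1, cutadapt 1.9.3, DESeq2 and edgeR, per the submitters' processing notes, which give no roles. For the strand setting, the footprint lengths and multiply mapped reads, no rule is given there. Another 2 columns of log CPM were not used.

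The members were the rows whose symbol was in the list of 10 genes. Counts were scaled with TMM (edgeR 4.0.16, R 4.3.3), with factors of 0.890 for IR and 1.12 for NC. Log2 ratios carry a pseudocount of 1, and folds carry none. Genes averaging 20 or more counts were compared. Without replicates no test between conditions exists. Intervals are exact (Clopper-Pearson for folds and shares, conditional for ratios of ratios, Poisson for levels), at 95%, and cover counting error only. The fold procedure was tested on simulated data. Other pathway genes were named by rule, the 2 highest and 2 lowest log2 ratios of each list among genes above the minimum count; 1 gene that the rule names is not reported here. Members, lists and gene pairs were chosen with earlier results of these data known. Other scalings (DESeq2 1.42.0 among them), minimum counts and pseudocounts were tried. Promoter sequences are from RefSeq (GRCm38.p6). Python 3.11.15, scipy 1.17.1 and matplotlib 3.10.9 were used. Matched mRNA libraries were not analysed here.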

Additional observations from a re-analysis of the deposited data

How the results depend on the processing

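No paired analysis was possible because each group has 1 library. Without replicates none could be left out. The planned shares per codon were not run, since coding lengths were not used here. Of the counts of members, the number at least 2-fold higher was 0, and 1 (Cdkn2b) without a minimum count (17.6% of all genes), among the 9 members above 0 in both libraries, a condition that leaves out Rb1. The number at least 2-fold lower was 0, and 1 (Cdk2) with total counts, with the 10 highest genes kept (20.8% of all genes) or left out (15.7%). Members higher beyond counting error numbered 3, and 1 under each of these total-count scalings (13.1% and 18.1% of all genes). Members lower beyond counting error numbered 1, but 5 with total counts (39.1% of all genes), 3 when the 10 highest genes were also left out (31.0%), and 0 with a minimum of 100 counts, which leaves 5 members. The members' median log2 ratio was -0.10, against -0.44 with total counts and -0.27 without the 10 highest genes, where all genes had medians of -0.34 and -0.18. Scaling by DESeq2 size factors or the upper quartile gave medians of -0.08 for the members, and pseudocounts of 0.5 and 5 left it at -0.10. No member placed beyond counting error changed sign at any setting run. The scaling-free shares and ratios do not change with these choices. Depth limits what can be seen: at a mean of 53 counts, Cdk6 had an interval of 0.504 to 1.13.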

Other observations

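The remaining cyclin and CDK genes of the table were also read, a set taken by symbol after the values above had been seen and given no test. Among 13 other cyclins averaging 20 or more counts the interval lay above 1 for 5 and below it for 2, around a median log2 ratio of 0.38, and of 11 other CDKs 3 were higher and 4 lower, with a median of -0.38. These are values after TMM scaling, under which 23.5% of all genes compared were higher and 23.7% lower. Under total counts all these folds are lower. The interval of Ccnh, 1 of the 5 higher cyclins, then included 1 (1.37, 0.895 to 2.12). Intervals move by the same factor as folds, so those of Ccny and Ccnf, from 1.01 and 1.08 upward under TMM, then included 1 too. So did the intervals of the 3 higher CDKs, with Cdk1 at 1.12 (0.956 to 1.31). Under total counts 13.1% of all genes compared were higher and 39.1% lower. Ccng1, a p53 target, was read 44 times in IR and 11 times in NC (fold 3.95, 2.01 to 8.48), and Ccnb1, the mitotic cyclin B1, was read 32 and 11 times (fold 2.87, 1.41 to 6.32). At the other end were the splicing-linked cyclins Ccnl1, read 60 and 141 times (fold 0.420, 0.305 to 0.573), and Ccnl2, read 71 and 146 times (fold 0.480, 0.357 to 0.642).

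Among the CDKs, Cdk9, the kinase of transcription elongation, was read 62 and 36 times (fold 1.70, 1.11 to 2.64), and Cdk14 was read 208 and 135 times (fold 1.52, 1.22 to 1.9). Cdk10 was read 10 and 36 times (fold 0.274, 0.121 to 0.565), and Cdk16 was read 39 and 71 times (fold 0.543, 0.357 to 0.813). Under total counts the folds of Cdk9 and Cdk14 were 1.35 and 1.21, with intervals that then included 1. Those of Cdk10 and Cdk16 were 0.217 and 0.430. Ccna2, the S phase cyclin that binds CDK2, was read 5 times in IR and 33 times in NC (fold 0.150, 0.0456 to 0.386), below the minimum mean count, and it overlaps Exosc9. Below that minimum too, the p53 gene Trp53 was read 30 and 4 times (fold 7.41, 2.61 to 28.9). Ccna2 and Trp53 fall outside the rule by which other genes were named. Further listed genes below the minimum also had intervals that excluded 1, on both sides, such as Il6 (17 and 2) and Tfdp1 (1 and 12). What share of all genes at such low counts did so was not computed.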
